A study of Mus musculus with 9 samples.

Results

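Interferon regulatory factors (IRFs) are a family of transcription factors that share a DNA-binding domain. The rows for Irf1, Irf2, Irf3, Irf4, Irf5, Irf7, Irf8 and Irf9 were taken by symbol from the gene count table, which gave 8 genes of 18303. Levels are given in CPM, which sets the counts of a gene against the TMM-scaled total of its library.

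The study set late against early macrophages of healing mouse skin. Cells positive for CD45, CD11b and F4/80 were sorted from digested wounds of untreated wild-type C57BL/6J mice, with dead cells gated out and a stain for CD115 included. RNA was sequenced from 5 libraries at day 14 after injury and from 4 libraries at day 4. The age and sex of the mice, the method of wounding and whether each library came from a separate animal are not given in the sources used here, and a p-value here reflects only how these libraries vary, which may be technical.

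In outline, IRF3 and IRF7 are the factors that switch on interferon genes once a sensor of microbial nucleic acid has signalled, and IRF5 drives inflammatory cytokine genes below Toll-like receptors. IRF9 is the DNA-binding part of the complex that carries the signal of the type I interferon receptor to interferon-stimulated genes, and Irf7 is itself such a gene. IRF1 activates genes of the interferon-gamma response and IRF2 can compete with it for the same DNA element, while IRF4 and IRF8 bind DNA largely with partners such as PU.1 and BATF and are known from macrophages, dendritic cells and lymphocytes.

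Of the 8 members, 3 were higher at day 14 (Irf4, Irf1 and Irf5), 2 were lower (Irf7 and Irf9), and 3 did not pass the test (Irf2, Irf3 and Irf8). Irf4 was 5.68-fold higher and Irf7 was 2.99-fold lower. The test was edgeR's quasi-likelihood test over all genes, with a call at a Benjamini-Hochberg adjusted p under 0.05. By the same rule 25.5% of the 13363 genes tested were called, 12.8% as higher at day 14 and 12.7% as lower, against 62.5% of the members. The libraries of the 2 days did not overlap for 5 members, the ones called, and did not overlap for 24.4% of all genes tested. The median log2 fold change was 0.08 over the members and -0.01 over all genes tested, and the median of its absolute size was 0.34 over the members and 0.27 over all genes. Among the called genes, 97 rose more than Irf4 and 237 fell more than Irf7.

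The DNA before the start of a gene can hold sites at which interferon signalling acts, and 5 stretches are shown for that reason, from RefSeq on GRCm38.p6 and each in the direction of its gene. Windows of 250 bases before each RefSeq start were searched on both strands for GAAANNGAA, the core of the interferon response element that IRFs bind, and for TTCNNNGAA, the palindromic element of STAT dimers. All 8 members had a window, and Irf1, Irf8 and Irf9 had 2 each. The response core was present in 7.13% of the 32851 windows of all genes and the STAT element in 7.02%. Among the members, Irf2 had a response core 241 bases before its start and a STAT element 224 bases before it, Irf1 had a STAT element 90 bases before its start, and Irf8 had a pair of STAT elements 171 and 153 bases before its start. Neither motif was found in the windows of Irf3, Irf4, Irf5, Irf7 and Irf9. Bases outside the windows were not searched, so this does not show that these genes lack such elements. Capitals mark the matches, and the Irf4 and Irf7 stretches, which belong to the members that differed most between the days, hold none.
Irf1 (chr11:53769884-53769972, plus strand): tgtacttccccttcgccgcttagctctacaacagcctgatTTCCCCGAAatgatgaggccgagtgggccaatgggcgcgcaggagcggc
Irf2 (chr8:46739495-46739569, plus strand): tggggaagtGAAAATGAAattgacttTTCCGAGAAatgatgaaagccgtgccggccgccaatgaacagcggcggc
Irf8 (chr8:120736147-120736253, plus strand): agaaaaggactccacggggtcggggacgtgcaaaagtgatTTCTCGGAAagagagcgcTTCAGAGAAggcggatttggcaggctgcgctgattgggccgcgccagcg
Irf4 (chr13:30749083-30749225, plus strand): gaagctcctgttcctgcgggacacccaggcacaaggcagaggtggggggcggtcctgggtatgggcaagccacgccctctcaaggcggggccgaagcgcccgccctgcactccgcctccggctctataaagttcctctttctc
Irf7 (chr7:141266482-141266574, minus strand): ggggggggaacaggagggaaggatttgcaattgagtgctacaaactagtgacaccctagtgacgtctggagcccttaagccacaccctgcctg

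The libraries held between 17982630 and 50445159 counts at day 14 and between 26479011 and 57809914 counts at day 4. Day 14 replicate 5 had no counts from a point on chromosome 9 onward, nor on chromosomes X and Y, which removed 808 genes that were well counted in the other 8 libraries. No member lies there, and values for listed genes of that stretch come from a fit of the other 8 libraries, which called 28.6% of 13287 genes. The shares over all genes given above include that stretch. With its genes left out of the fit of all libraries, 12300 genes were tested, of which 1958 were called higher and 1858 lower. The 10 macrophage and sort markers, all detected, summed to between 20192 and 21746 CPM at day 14 and between 18874 and 22418 CPM at day 4. The lysozyme gene Lyz2, which was not called, made up much of that sum (9421 to 11490 CPM at day 14 and 9453 to 10521 CPM at day 4). Of the 10, Ptprc and Emr1, which encode the sort markers CD45 and F4/80, rose by 0.38 and 0.37 on the log2 scale. Itgam, which encodes CD11b, fell by 0.45, Cd68 by 0.47, Fcgr1 by 1.10 and Mertk by 0.35. The part of these differences in the results for the members was not tested. Conventional dendritic cell markers summed to between 821 and 938 CPM at day 14 and between 451 and 567 CPM at day 4. Fibroblast markers summed to between 5545 and 9028 CPM at day 14 and between 10145 and 20220 CPM at day 4.

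**Figure D1:**
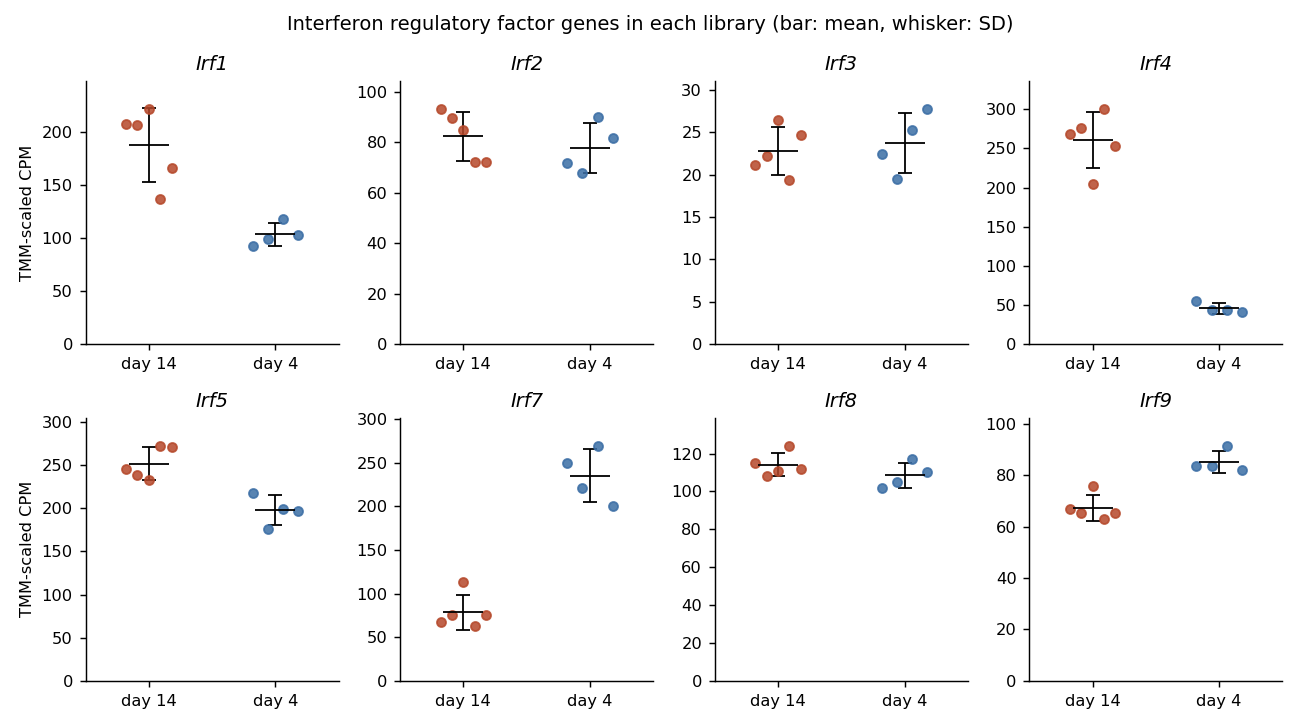
TMM-scaled CPM (vertical axis, starting at 0) of each of the 8 members in the 5 day 14 libraries (left, orange) and the 4 day 4 libraries (right, blue), with the mean as a bar and the SD as a whisker. The days are apart for Irf1, Irf4, Irf5, Irf7 and Irf9, and the ranges overlap for Irf2, Irf3 and Irf8.

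Irf7 (chr7:141262706-141266481, minus strand, GRCm38), the interferon-inducible activator of interferon genes, had 67.6, 75.2, 113, 62.8 and 74.9 CPM in the day 14 libraries, against 250, 221, 269 and 200 CPM in the day 4 libraries. Every day 14 library was below every day 4 library, and day 14 replicate 3 stood above the other 4 of its day. The means were 78.7 ± 19.9 CPM at day 14 and 235 ± 30.4 CPM at day 4 (SD, n = 5 and 4), a log2 fold change of -1.58 ± 0.17 (SE, edgeR adjusted p = 0.000166). Its 95% confidence interval ran from -1.95 to -1.20. Without day 14 replicate 3 the log2 fold change was -1.77.

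Irf3 (chr7:44997648-45002848, plus strand), which is made without induction and starts the interferon response, had 21.1, 22.2, 26.4, 19.3 and 24.7 CPM at day 14, against 22.4, 19.5, 25.3 and 27.7 CPM at day 4. The ranges of the 2 days covered each other almost whole. The log2 fold change was -0.06 ± 0.12 (SE, edgeR adjusted p = 0.773), with a 95% interval from -0.34 to 0.22, and its sign turned under upper-quartile scaling (0.01), in the 6 shallower libraries (0.13) and without day 4 replicate 4 (0.00).

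Irf9 (chr14:55603571-55610030, plus strand), the DNA-binding subunit of the complex below the type I interferon receptor, had 67, 65.5, 75.9, 62.8 and 65.2 CPM at day 14, against 83.4, 83.5, 91.4 and 82.1 CPM at day 4. The lowest day 4 library was above the highest day 14 library. The fall was 1.27-fold, a log2 fold change of -0.34 ± 0.07 (SE, edgeR adjusted p = 0.0082), with a 95% interval from -0.50 to -0.17.

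Irf1 (chr11:53770014-53778374, plus strand), the activator induced by interferon-gamma, had 207, 206, 221, 137 and 166 CPM at day 14, against 92.5, 99.3, 118 and 103 CPM at day 4. Day 14 replicate 4 was the lowest of its day and still above the highest day 4 library. The means were 188 ± 35 CPM at day 14 and 103 ± 10.8 CPM at day 4 (SD, n = 5 and 4), a 1.82-fold rise (log2 fold change 0.86 ± 0.14 SE, edgeR adjusted p = 0.00208, 95% interval 0.54 to 1.18).

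Irf2 (chr8:46739732-46847458, plus strand), the antagonist of IRF1 at shared sites, had 93, 89.6, 84.6, 72.3 and 72 CPM at day 14, against 71.7, 67.7, 89.8 and 81.6 CPM at day 4. The days overlapped. The log2 fold change was 0.08 ± 0.11 (SE, edgeR adjusted p = 0.641), and the 95% interval from -0.17 to 0.33 bounds the difference on either side.

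Irf5 (chr6:29526625-29541871, plus strand), the factor below Toll-like receptors, had 245, 238, 232, 272 and 271 CPM at day 14, against 218, 176, 199 and 197 CPM at day 4. All day 14 libraries were above all day 4 libraries, by a small margin. The rise was 1.27-fold (log2 fold change 0.35 ± 0.09 SE, edgeR adjusted p = 0.0142, 95% interval 0.16 to 0.54). Of the exon bases of Irf5, 14.1% overlap exons of Tnpo3 on the opposite strand, and reads of an unstranded library cannot be told apart there. In the other members such overlap with a neighbouring gene was at most 3.4% of the exon bases.

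Irf4 (chr13:30749226-30766976, plus strand), a partner of PU.1 and of BATF in macrophages, dendritic cells and lymphocytes, had 269, 276, 205, 300 and 253 CPM at day 14, against 55.7, 43.8, 43.3 and 40.7 CPM at day 4. The lowest day 14 library, replicate 3, was still far above the highest day 4 library, replicate 1. The log2 fold change was 2.51 ± 0.14 (SE, edgeR adjusted p = 5.04e-06, 95% interval 2.20 to 2.81). Only 9 of the genes tested had a lower p-value.

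Markers of other cells that use Irf4 moved with it, and their part in the result was not tested. Of 12 conventional dendritic cell markers, 8 rose and 0 fell, with the summed levels given above, and 4 of 11 rose in the 6 shallower libraries. All 3 B and plasma cell markers tested rose. These were Cd79b (8.78 to 11.9 CPM at day 14 and 3.64 to 6.6 CPM at day 4), Igj (2.54 to 9.71 CPM at day 14 and 0 to 0.269 CPM at day 4) and Tnfrsf17 (0.894 to 1.66 CPM at day 14 and 0.323 to 0.512 CPM at day 4). Ms4a1, Cd79a, Pax5 and Mzb1 averaged under 1 CPM and were too low to test. In bulk RNA, more cells of a type and more RNA per cell cannot be told apart.

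Irf8 (chr8:120736358-120756694, plus strand), the PU.1 partner of monocytes and of type 1 dendritic cells, had 115, 108, 111, 124 and 112 CPM at day 14, against 102, 105, 117 and 110 CPM at day 4. The days overlapped, with means of 114 ± 5.93 CPM (day 14) and 109 ± 6.38 CPM (day 4; SD, n = 5 and 4). The log2 fold change was 0.07 ± 0.07 (SE, edgeR adjusted p = 0.514, 95% interval -0.09 to 0.23).

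**Figure D2:**
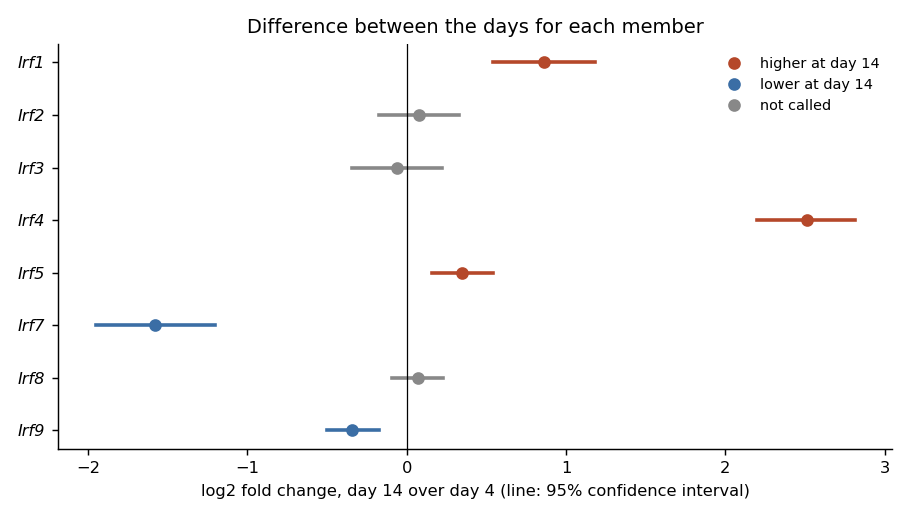
Log2 fold change of each member, day 14 over day 4 (horizontal axis), as a point with its 95% confidence interval as a line, coloured by the edgeR call. Irf4 at 2.51 and Irf7 at -1.58 lie farthest from 0, and the intervals of Irf2, Irf3 and Irf8 cross 0.

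The smaller differences were also fitted on fewer libraries. In the 6 libraries with fewer counts than the other 3 (4 at day 14 and 2 at day 4, the deepest with 27381276 counts), Irf1, Irf4 and Irf7 were called again. In those libraries the log2 fold changes of Irf5 and Irf9 were 0.35 and -0.32, close to those of all 9 libraries, and no longer passed (edgeR adjusted p = 0.144 and 0.122). Upper-quartile scaling raised the share of all calls that were higher at day 14 to 65.5%, against 50.3% with TMM scaling, and left the 5 member calls as they were.

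Levels were compared between members as CPM per kb of the main annotated transcript. At day 14 the order ran from Irf5 at 112 CPM per kb through Irf1 at 87.8, Irf4 at 54.7, Irf7 at 41.1, Irf8 at 40, Irf2 at 33 and Irf9 at 27.4 to Irf3 at 11.2 CPM per kb. In that order the library ranges of neighbours were apart between Irf1 and Irf4, between Irf8 and Irf2 and between Irf9 and Irf3, and overlapped in the other 4 pairs. At day 4 the order ran from Irf7 at 123 CPM per kb through Irf5 at 88.1, Irf1 at 48.3, Irf8 at 38.1, Irf9 at 34.6, Irf2 at 31.1 and Irf3 at 11.7 to Irf4 at 9.63 CPM per kb. There, the ranges overlapped between Irf8 and Irf9, between Irf9 and Irf2 and between Irf3 and Irf4. These places depend on the length used. Per kb of all annotated exons, an alternative chosen after seeing the data, Irf7 had rank 4 at day 14 and rank 2 at day 4, below Irf5 on both days, and Irf4 had rank 2 at day 14 and rank 7 at day 4.

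The summed level of the 8 members was 407 ± 14.5 CPM per kb at day 14 and 384 ± 27.9 CPM per kb at day 4 (SD, n = 5 and 4), and these ranges overlapped. Irf4 made up 13.5 ± 2.19% of that sum at day 14 and 2.51 ± 0.355% at day 4. Irf7 made up 10 ± 2.21% at day 14 and 31.8 ± 2.33% at day 4. The share of Irf1 was 21.5 ± 3.34% at day 14 and 12.6 ± 1.04% at day 4, and that of Irf5 was 27.7 ± 3.01% at day 14 and 23 ± 1.68% at day 4. Per kb of all annotated exons the share of Irf4 was 20.9 ± 2.96% at day 14 and 4.37 ± 0.571% at day 4, and that of Irf7 8.19 ± 2.02% at day 14 and 29 ± 2.16% at day 4. Per kb of the main transcript, the library ranges of the Irf4, Irf7, Irf1 and Irf9 shares did not overlap between the days. The Irf9 share ran from 6.47 to 7.25% at day 14 and from 8.64 to 9.51% at day 4.

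**Figure D3:**
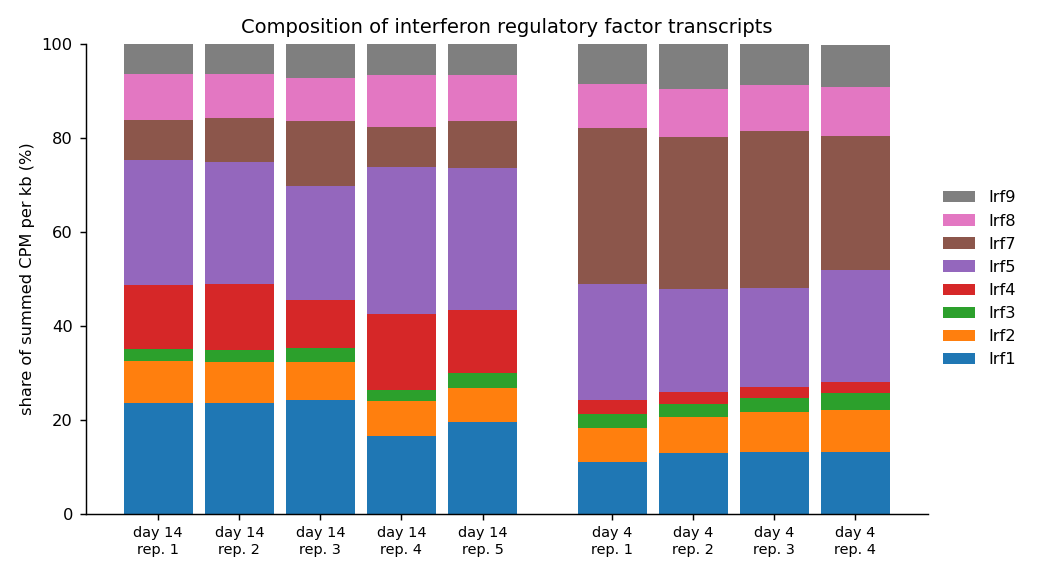
Share of each member in the summed CPM per kb of the 8 genes (vertical axis, percent), as stacked bars for the 5 day 14 libraries (left) and the 4 day 4 libraries (right). The Irf7 band averages 10% at day 14 and 31.8% at day 4, and the Irf4 band 13.5% at day 14 and 2.51% at day 4.

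Ratios of members within a library do not depend on the scaling between libraries. Irf4 was set over Irf8 because both use PU.1, and the CPM ratio was 2.35, 2.54, 1.85, 2.42 and 2.26 at day 14, against 0.544, 0.417, 0.371 and 0.37 at day 4. Irf4 thus exceeded Irf8 in every day 14 library and was below it in every day 4 library. The ratio of Irf1 over Irf2, activator over antagonist, was 2.23, 2.3, 2.62, 1.89 and 2.31 at day 14, against 1.29, 1.47, 1.32 and 1.27 at day 4. For Irf7 over Irf3, the induced over the constitutive activator, it was 3.2, 3.38, 4.28, 3.25 and 3.04 at day 14, against 11.2, 11.3, 10.6 and 7.24 at day 4. None of the 3 ratios overlapped between the days. The differences of the mean log2 ratio were 2.42, 0.76 and -1.54 in the same order, each with p = 0.0159 in a two-sided exact permutation test (n = 5 and 4), and with 0.0159 after adjustment over the 3 ratios. That is the smallest p this design allows. In each ratio the numerator gene was called in the edgeR test above and the denominator gene was not. The ratio tests are therefore not separate evidence of a difference.

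**Figure D4:**
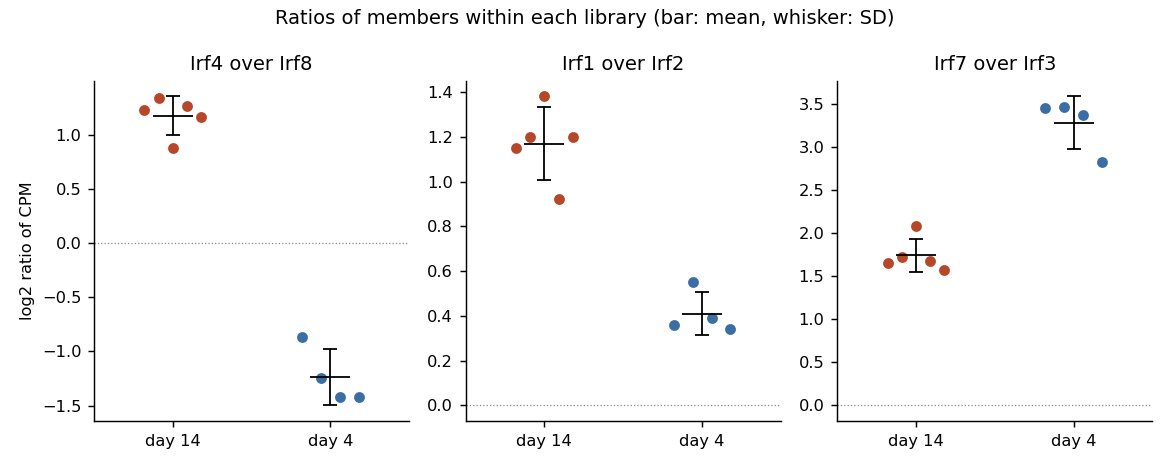
Log2 ratio of CPM within each library (vertical axis) for Irf4 over Irf8, Irf1 over Irf2 and Irf7 over Irf3, with day 14 on the left and day 4 on the right, the mean as a bar and the SD as a whisker. The dotted line marks equal CPM, and Irf4 over Irf8 lies above it in all 5 day 14 libraries and below it in all 4 day 4 libraries.

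Around these factors, the sensors and adaptors that activate IRF3, IRF5 and IRF7 were called about as often as genes in general. Of 28 tested, 3 rose, 5 fell and 20 did not pass, with a median log2 fold change of -0.14. The share called was 28.6%, beside 25.5% of all genes with 9 libraries and 28.6% with the 8 libraries used for some of the list. Zbp1 and Dhx58, which sense or modulate the sensing of nucleic acids, fell (log2 fold changes -1.08 ± 0.11 and -1.01 ± 0.10 SE), as did Ddx58, which encodes the RNA sensor RIG-I, at -0.61 ± 0.09. Ikbke, a kinase of IRF3 and IRF7, averaged 51.8 ± 4.99 CPM at day 14 and 76.6 ± 9.19 CPM at day 4 and fell by 0.57 on the log2 scale. Tlr13, a receptor for bacterial ribosomal RNA, fell by 0.67. Tlr7 and Tlr8, endosomal RNA receptors, rose by 0.60 ± 0.13 and 0.44 ± 0.12, and Ticam2, the adaptor TRAM, rose by 0.47 ± 0.11. Unc93b1, the most abundant gene of the list and the chaperone of endosomal Toll-like receptors, averaged 613 ± 58 CPM at day 14 and 614 ± 88.1 CPM at day 4.

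Interferon transcripts themselves were scarce. Ifnb1, the gene of interferon-beta, averaged 1.28 ± 0.451 CPM at day 14 and 0.278 ± 0.16 CPM at day 4 and rose (log2 fold change 2.19 ± 0.46 SE, edgeR adjusted p = 0.00682). Among the 5 interferon genes in the table it alone had enough counts to be tested. Ifna2, Ifna4, Ifng and Ifnk averaged under 1 CPM on both days. Of the kinases that lie between interferon receptors and IRF9, Jak2 and Jak1 rose by 0.76 ± 0.17 and 0.28 ± 0.08 on the log2 scale. Ifnb1, Jak2 and Jak1 were not called in the 6 shallower libraries, and Jak1 was also not called without any 1 of 4 libraries (day 14 replicates 1 and 4, day 4 replicates 3 and 4).

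Type I interferon-stimulated genes, the targets of the IRF9 complex and of IRF7, were mostly lower at day 14 among those called. Of 30 tested, 14 fell, 2 rose and 14 did not pass, with a median log2 fold change of -0.40 beside -0.01 over all genes. Oasl2, of the oligoadenylate synthetase family, averaged 102 ± 8.36 CPM at day 14 and 205 ± 23.2 CPM at day 4, and Oas1a averaged 69 ± 6.57 CPM at day 14 and 120 ± 7.56 CPM at day 4. Rtp4, a chaperone induced by interferon, fell by 0.73 ± 0.09 and Parp14, the most abundant of the list, by 0.38 ± 0.09. The genes that rose were Oasl1 (0.59 ± 0.10) and Ifi203 (0.54 ± 0.16). Oas and Ifi200 genes have near-identical copies, so their counts are less certain. In the 6 shallower libraries 8 of the 30 fell and 0 rose, and Ifi203 was also not called without any 1 of 6 libraries (day 14 replicates 1, 2 and 4, day 4 replicates 2, 3 and 4).

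Genes of the IRF1 and interferon-gamma response showed calls in both directions. Of 27 tested, 9 rose, 3 fell and 15 did not pass, with a median of 0.17. Cxcl10, a chemokine for T cells, averaged 85 ± 21.1 CPM at day 14 and 44.5 ± 4.14 CPM at day 4, and Gbp3, a guanylate-binding protein of cell-autonomous immunity, 66.6 ± 7.88 CPM at day 14 and 40.4 ± 5.53 CPM at day 4. Gbp genes also share sequence with their paralogs. Il18bp, the secreted inhibitor of interleukin 18, fell by 0.82 ± 0.13, Tapbp by 0.34 ± 0.09 and Nlrc5 by 0.29 ± 0.09. The products of Tapbp and Nlrc5 serve antigen presentation on MHC class I. Nlrc5 was not called under 8 of 20 other settings. B2m, the most abundant of the list and the light chain of that complex, averaged 2953 ± 423 CPM at day 14 and 3053 ± 251 CPM at day 4. The counts of this list moved with the libraries used: 2 rose and 0 fell in the 6 shallower libraries, 5 rose without day 14 replicate 1, day 14 replicate 2 or day 4 replicate 4, and 6 rose without day 14 replicate 3 or day 4 replicate 3. Without day 14 replicate 3, 6 fell.

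The partners with which IRF4 and IRF8 bind DNA, together with related regulators, rose in 7 of 17 cases and fell in 1, with a median of 0.32. Spi1, which encodes the shared partner PU.1, averaged 152 ± 15.9 CPM at day 14 and 166 ± 29.4 CPM at day 4. It was not called (log2 fold change -0.12 ± 0.13 SE). Batf, whose product forms the AP-1 dimer that recruits IRF4, averaged 43.9 ± 2.48 CPM at day 14 and 21 ± 1.44 CPM at day 4. Batf3, its relative in dendritic cells, averaged 14.2 ± 0.895 CPM at day 14 and 3.45 ± 1.56 CPM at day 4, and Ikzf3, the zinc finger factor Aiolos, 8.73 ± 2.74 CPM at day 14 and 2.5 ± 0.549 CPM at day 4. Zeb2, the most abundant of the list, rose by 0.32 ± 0.10. The single gene that fell was Prdm1, the repressor Blimp-1, by 0.45 ± 0.13. Without day 14 replicate 1, 4 rose, and in the 6 shallower libraries 5 rose and 0 fell. Neither Prdm1 nor Zeb2 was called in those 6 libraries, nor without day 14 replicate 1 or 2. Prdm1 was also not called without day 4 replicate 1, and Zeb2 without day 14 replicate 4 or any 1 of day 4 replicates 2, 3 and 4.

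Genes linked to IRF4 in macrophages and dendritic cells under interleukin 4 rose in 8 of 15 cases and fell in 3. Retnla, a secreted protein of such macrophages, averaged 2194 ± 477 CPM at day 14 and 105 ± 27.8 CPM at day 4, a 20.8-fold rise. Mgl2, a C-type lectin, rose 6.01-fold and Ccl22, a chemokine for T cells, 5.76-fold, while Mrc1, the mannose receptor and the most abundant of the list, rose 1.73-fold. Arg1 and Chil3, which are also used as marks of this activation state, fell. Arg1, arginase 1, averaged 26.8 ± 27.3 CPM at day 14 and 864 ± 208 CPM at day 4, a log2 fold change of -5.01 that was -5.76 without day 14 replicate 4, and Chil3, a chitinase-like protein, 16.1 ± 10.1 CPM at day 14 and 82.9 ± 16.7 CPM at day 4. Il4ra, the receptor chain for interleukin 4, fell by 0.54 ± 0.16 and was not called under 10 of 20 other settings. In the 6 shallower libraries 7 rose and 0 fell. The list holds Cd209a and Clec10a, which are also dendritic cell markers.

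**Figure D5:**
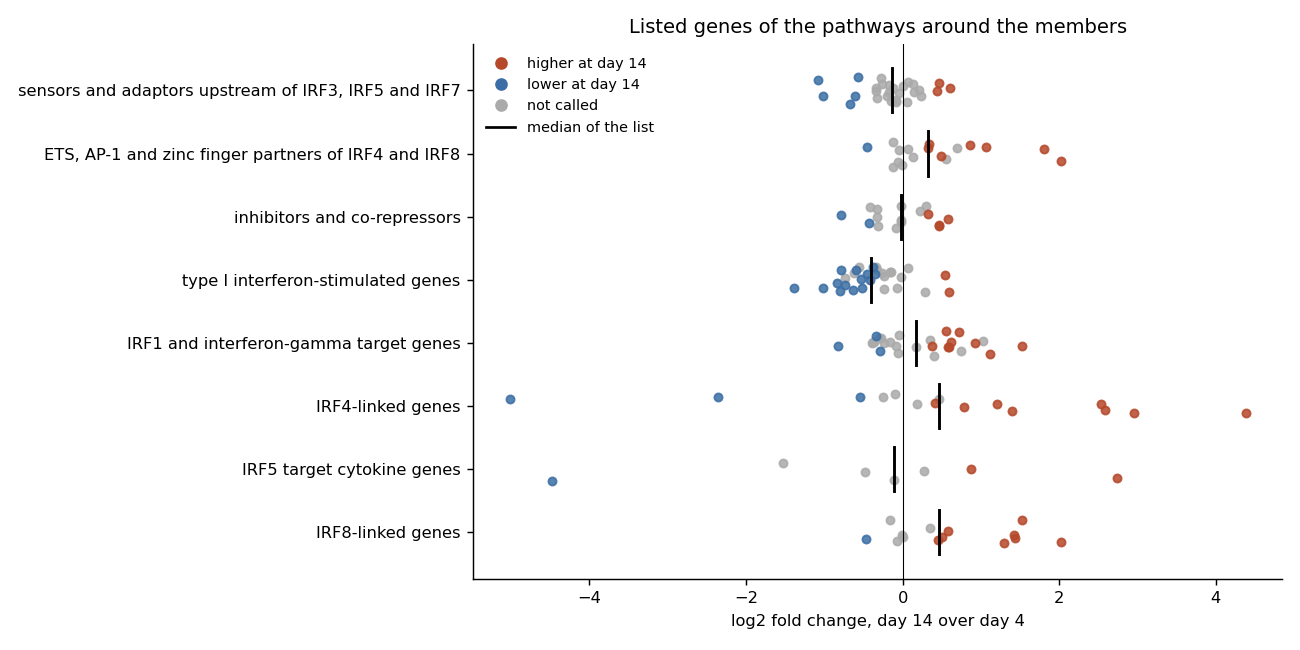
Log2 fold change, day 14 over day 4 (horizontal axis), of every tested gene in 8 lists around the members, as points coloured by the edgeR call, with the median of each list as a black bar. The median of the type I interferon-stimulated genes lies at -0.40, and those of the IRF4-linked and IRF8-linked genes at 0.46 and 0.47.

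Genes linked to IRF8 in monocytes and dendritic cells rose in 8 of 14 cases and fell in 1, with a median of 0.47, while Irf8 itself was not called. Cadm1, an adhesion molecule of type 1 dendritic cells, averaged 14.8 ± 1.3 CPM at day 14 and 5.15 ± 0.96 CPM at day 4 (8 libraries), and Zbtb46, a factor of conventional dendritic cells, 10.1 ± 1.79 CPM at day 14 and 3.72 ± 0.694 CPM at day 4. Xcr1, Clec9a and Zbtb46 in this list are also among the dendritic cell markers, and Batf3 and Klf4 among the partners above. Ctss, the protease cathepsin S and the most abundant of the list, fell by 0.47 ± 0.09.

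Cytokine genes known as IRF5 targets moved apart. Of 7 tested, Il12b, the subunit shared by interleukins 12 and 23, averaged 6.65 ± 1.64 CPM at day 14 and 0.988 ± 0.477 CPM at day 4 and rose 6.7-fold, and Ccl5, a chemokine, rose 1.84-fold. Nos2, inducible nitric oxide synthase, averaged 3.13 ± 3.64 CPM at day 14 and 70.4 ± 41.5 CPM at day 4 and fell 22.4-fold (log2 fold change -4.48, or -5.49 without day 14 replicate 3). Il1b, the most abundant of the list, averaged 1463 ± 423 CPM at day 14 and 2039 ± 743 CPM at day 4 and was not called. Of 16 genes for inhibitors of these pathways, 4 rose (Ptpn2, Tnfaip3, Peli1 and Pias1), 2 fell (Usp18 and Irf2bpl) and 10 were not called. Usp18, which restrains the type I interferon receptor and is interferon-stimulated itself, averaged 17.5 ± 5.11 CPM at day 14 and 30.1 ± 4.54 CPM at day 4. Tnfaip3, the NF-kappa-B inhibitor A20, averaged 889 ± 109 CPM at day 14 and 647 ± 103 CPM at day 4. None of the 14 inhibitor genes fitted in the 6 shallower libraries was called there, and Ccl5 and Nos2 were not called there either. Of the same 14 genes, 3 rose with all 9 libraries, 1 rose without day 14 replicate 1, day 14 replicate 2 or day 4 replicate 3, and 4 fell without day 14 replicate 3. Without that library 2 of the IRF5 targets fell.

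The genes most like each member were found by the root-mean-square difference of log2 CPM, centred on each gene's mean, over the 9 libraries and among 9036 genes. These are descriptions and rest on the same libraries. For Irf4 they were Tnip3, Lyz1 and Dcstamp, at distances of 0.131, 0.160 and 0.195. Tnip3 had 201, 234, 148, 267 and 185 CPM at day 14, against 42.7, 37.4, 29.1 and 28.6 CPM at day 4, with the same low library at day 14 as Irf4. For Irf7 they were LOC100038947, Ms4a4c and Oas3, at 0.131, 0.135 and 0.162. Oas3 had 25.9, 27.6, 50.7, 27.5 and 38.2 CPM at day 14, against 97.3, 77.5, 99.3 and 83.1 CPM at day 4, and was highest at day 14 in replicate 3, as was Irf7. For Irf1 they were Pank1, Cxcl10 and Arl4d, at 0.119, 0.124 and 0.127. Cxcl10 had 95.5, 88.4, 111, 56.1 and 73.8 CPM at day 14, against 43.2, 48.3, 47.4 and 39.3 CPM at day 4, and was lowest at day 14 in replicate 4, as was Irf1.

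The members with smaller differences had closer neighbours, and by this measure genes that vary little lie near each other. For Irf5 they were Pttg1ip, Dock2 and Actg1 (0.048 to 0.065), for Irf9 Rnf114, Sepw1 and Nbas (0.048 to 0.060) and for Irf8 Rnf25, Adprm and D5Ertd579e (0.046 to 0.051). For Irf3 they were Zfp276, Myg1 and Nisch (0.044 to 0.048), and for Irf2 Scnm1, Ercc5 and Calcoco1 (0.060 to 0.064).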

How the data were processed

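The deposited files are a gene table of estimated counts, some of them fractional, and a second table of normalized signal values for 13673 genes. Per the submitters' processing notes the tools were CASAVA 1.8, HISAT2 2.1.0, SAMtools 1.4, Partek 6.6 and DESeq2, and the genome was mm10. The order and settings of these tools are not given in the sources used here. The kit did not mark strand. All 9 libraries were matched by their titles, and 0 columns of per-sample values were left unused. Counts were rounded, scaled by TMM, filtered with filterByExpr and tested in edgeR 4.0.16 (R 4.3.3, robust quasi-likelihood, two-sided). P-values were adjusted by Benjamini and Hochberg's method across the whole table, with a call under 0.05. The deposited signal values served as an alternative, tested in limma 3.58.1 on log2 (value + 1). Other alternatives were other scalings, DESeq2 1.42.0, limma-voom, other filters, a subset of libraries by depth, and leaving out each library. Within-library ratios used CPM + 0.5 and an exact permutation test over 126 assignments (scipy 1.17.1). Gene positions and transcript lengths are from GENCODE vM21 on GRCm38. The edgeR code was tested on simulated data.

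The genes named are all members; of each list the 3 lowest p-values, the most abundant gene and all genes called in a direction with at most 5 calls; and the 3 nearest genes of each member among those averaging at least 5 CPM. Spi1 is named in addition, because it encodes PU.1, the partner described above. The members and lists were chosen with earlier results of these data known. Some listed genes and markers are not reported here. The eosinophil and mast cell, T and NK cell, neutrophil and plasmacytoid dendritic cell markers were also measured. Counting error is small at these depths, and the number of libraries limits the precision. Pairs of libraries of the same day differed beyond counting error (between 11.6 and 140.7 in chi-square divided by its degrees of freedom, with the 4 highest values in pairs with day 14 replicate 5), so none was taken for a repeat deposit of another. That does not show that they are separate animals.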

Additional observations from a re-analysis of the deposited data

Results flagged for a closer look

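Among 16 groups of libraries looked at (8 members on 2 days), 2 had a library far from the others of its day, where chance gives about 1 in 20 groups. Irf7 had 113 CPM in day 14 replicate 3, while the nearest other day 14 library had 75.2 CPM. The gap was 0.754 of the range of that day. Irf9 had 91.4 CPM in day 4 replicate 3, while the nearest other day 4 library had 83.5 CPM, a gap of 0.85 of the range. The summed type I interferon-stimulated genes were also highest of their day in these libraries, at 3000 CPM in day 14 replicate 3 and 3663 CPM in day 4 replicate 3. Day 14 replicate 3 also had the highest neutrophil marker sum of its day, 1771 CPM, against 276 to 833 CPM in the other day 14 libraries, and 953 to 2254 CPM at day 4. The part of these markers in the Irf7 value was not tested.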

How the results depend on the processing

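Irf1, Irf4 and Irf7 kept their direction and their call under all 20 alternatives, with log2 fold changes of 0.77 to 0.96, 2.36 to 2.61 and -1.77 to -1.51. Irf5 (0.28 to 0.42) and Irf9 (-0.41 to -0.28) lost the call only in the 6 shallower libraries. Irf2 (0.00 to 0.18) and Irf8 (0.03 to 0.13) were called under none. Irf3, from -0.16 (without day 4 replicate 2) upward, turned to 0.01 under upper-quartile scaling, 0.13 in the 6 shallower libraries and 0.00 without day 4 replicate 4.

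Upper-quartile scaling called 2064 genes higher and 1089 lower, against 1713 and 1694 with TMM scaling. The 6 shallower libraries called 668 higher and 666 lower, and of the members 2 higher and 1 lower. Leaving out each library gave 1235 to 1967 genes higher and 1160 to 2116 lower, with 3 members higher and 2 lower each time. The log2 ratio differences in the 6 shallower libraries were 2.23, 0.72 and -1.69 for Irf4 over Irf8, Irf1 over Irf2 and Irf7 over Irf3, each with exact permutation p = 0.133, the smallest that 4 against 2 libraries can give. Leaving out each library gave 2.36 to 2.55, 0.70 to 0.82 and -1.69 to -1.48. The cause of these shifts was not tested. No paired analysis was possible because the replicate numbers only name the libraries in accession order and the labels name no pairing.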

Other observations

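Markers of further cell types were measured beside the members. T and NK cell markers summed to between 80.2 and 109 CPM at day 14 and between 36 and 41.8 CPM at day 4, and of 4 tested, Cd2 and Cd4 rose. Cd2 and Cd4 made up most of that sum. The other 10 of the 12 markers averaged under 1 CPM, among them Lck, Cd247, Nkg7 and Cd8a. Eosinophil and mast cell markers summed to between 25.1 and 36.5 CPM at day 14 and between 16.2 and 27.9 CPM at day 4, and of 7 tested, 5 rose and 1 fell. Of 5 plasmacytoid dendritic cell markers tested, Siglech rose and 4 were not called. Siglech had 1.94 to 4.08 CPM at day 14 and 0.243 to 0.858 CPM at day 4. Tcf4, a broadly expressed gene that made up most of the list's sum, had 162 to 205 CPM at day 14 and 140 to 169 CPM at day 4, and Ccr9, Ly6d, Pacsin1, Cox6a2 and Klk1 averaged under 1 CPM. Of 12 fibroblast markers, 8 fell and 0 rose. Their part in the values of the members was not tested.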
